A study of Mus musculus with 12 samples.

Results

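Ctxn3, Foxred2, Otulinl, Crispld2 and Ak5 are 5 genes about which little is known in cartilage and whose signal moved the same way between dexamethasone (DEX) and vehicle at both times of the study. They were picked from the measured values for that direction, so their DEX and vehicle levels are a description and carry no test. The platform annotation gave them 9 of the 45101 probe sets, the groups of oligonucleotides that measure the transcripts of a gene. Some probe sets are annotated to several genes. The members are 5 of the 18194 genes named on the array. Chondrocytes, the cartilage cells, were isolated from the tibiae, femurs and humeri of E15.5 embryos of CD1 mice, grown as monolayers and given 100 nM DEX, a synthetic glucocorticoid, or an equal volume of the solvent DMSO (vehicle), all in medium with ascorbic acid and beta-glycerophosphate. The 4 groups, DEX and vehicle at 24 hrs and DEX and vehicle at 6 hrs, held 3 arrays each with the replicate numbers 1, 2 and 4, from 3 independent cell isolations. How many embryos went into an isolation is not given in the sources used here. Same-numbered DEX and vehicle arrays of a time are called a pair.

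Glucocorticoids enter the cell and bind the glucocorticoid receptor, which moves to the nucleus and raises or lowers the transcription of target genes by binding DNA or other transcription factors. In cartilage, glucocorticoids are known for slowing growth of the long bones when given in excess. The 5 genes encode proteins of different kinds. Ctxn3 encodes cortexin 3, a small membrane protein of a family first described in brain cortex. Foxred2 encodes a flavoprotein of the endoplasmic reticulum (ER), whose human form takes part in disposal of misfolded proteins. Otulinl encodes a relative of the deubiquitinase Otulin that, in human, sits on the ER and lacks enzyme activity. Crispld2 encodes a secreted glycoprotein with CAP and LCCL domains, first found as a glucocorticoid-induced gene in fetal rat lung. Ak5 encodes a cytosolic adenylate kinase, an enzyme that moves phosphate between adenine nucleotides, known mainly from brain.

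The RefSeq promoter table (build GRCm38.p6) held 3 of the 5 members. Their 250 bases before the start of the gene are shown because these are the members whose signal was higher with DEX and for which the table has an entry. Capitals mark the E-box CACGTG, and capitals would also mark the receptor motifs named below.
Foxred2, chr15:77956723-77956972 (-): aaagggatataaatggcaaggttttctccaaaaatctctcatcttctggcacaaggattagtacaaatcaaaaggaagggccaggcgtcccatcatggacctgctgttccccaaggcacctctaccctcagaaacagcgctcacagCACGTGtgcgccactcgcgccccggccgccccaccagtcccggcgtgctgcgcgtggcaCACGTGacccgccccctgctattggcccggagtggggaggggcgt
Otulinl, chr15:27681543-27681792 (-): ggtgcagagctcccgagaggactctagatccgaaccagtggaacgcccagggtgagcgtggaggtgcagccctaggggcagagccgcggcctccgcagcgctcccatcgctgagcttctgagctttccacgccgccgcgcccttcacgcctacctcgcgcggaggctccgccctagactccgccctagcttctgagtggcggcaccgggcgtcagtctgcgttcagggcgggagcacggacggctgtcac
Crispld2, chr8:119992188-119992437 (+): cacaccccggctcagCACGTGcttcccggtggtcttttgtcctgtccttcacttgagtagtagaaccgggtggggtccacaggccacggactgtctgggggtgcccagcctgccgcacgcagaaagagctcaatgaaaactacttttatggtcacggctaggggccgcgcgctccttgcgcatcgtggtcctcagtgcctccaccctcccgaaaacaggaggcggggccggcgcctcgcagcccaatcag
Each window was searched on both strands, together with the 50 bases after the start. The receptor's palindrome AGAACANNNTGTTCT was in none of the 3 windows and in 0.00913% of the 32851 promoters of the table. The looser form GNACANNNTGTNC, which contains that palindrome's core, was in none of the 3 and in 0.475% of all, and the motif TGTTCT, which is 1 arm of the palindrome, was in none of the 3 and in 19.0% of all. Other motifs were chosen after the letters were seen. The E-box began 104 and 45 bases before the start of Foxred2 and 235 bases before that of Crispld2, and was in 7.15% of all promoters. The ER stress element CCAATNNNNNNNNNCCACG was in none of the 3 and in 0.119% of all, though its part CCAAT was present 1 time each in Foxred2 and Crispld2 and in 37.4% of all. GC boxes (GGGCGG) were present 2 times in Foxred2 and 3 times in Otulinl, and in 35.7% of all, and TATAAA 1 time in Foxred2, 243 bases before the start, and in 13.6% of all. The windows shown are rich in G and C, at 60.0% in Foxred2, 69.2% in Otulinl and 63.2% in Crispld2, while the median over the same 250 bases of all promoters was 52.4%. These are matches of letters within short windows and say nothing of binding.

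Signal is given as linear intensity, which the authors corrected for background by GC-RMA, and 50 was the lowest group mean at which a probe set was taken as expressed. Of the 9 probe sets, 8 passed in at least 1 of the 4 groups. The arrays had a median intensity of 32.1 to 39.1 at 24 hrs and of 25.7 to 35.2 at 6 hrs. Between 17032 and 20091 probe sets per array were at 50 or above. The arrays were thus somewhat dimmer at 6 hrs, with some overlap. They were hybridized on 4 days, each with DEX and vehicle arrays, but no day held both times. The 4 arrays of day 3 (replicates 1 and 2 at 6 hrs) stood apart in a measure of RNA breakdown. Their Gapdh probe set from the 3′ end exceeded that from the 5′ end by 0.49 to 0.74 on the log2 scale, against -0.33 to -0.22 on the other 8. Day 4 held replicate 4 at 6 hrs. Among markers fixed for the cultures, all 18 of 18 cartilage genes were expressed, with summed intensities of 42212 to 55037 with DEX and 36565 to 53833 with vehicle at 24 hrs, and of 31383 to 58564 with DEX and 31809.9 to 53899 with vehicle at 6 hrs. The intensities come from whole cultures, in which a change in the number of cells of 1 type and a change of RNA per cell cannot be told apart.

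All 5 members had groups of arrays that did not overlap at 24 hrs and at 6 hrs. Ctxn3, Foxred2, Otulinl and Crispld2 were higher with DEX in 6 of 6 pairs, and Ak5 was lower in 6 of 6. Over all 20897 expressed probe sets, all DEX arrays were above all vehicle arrays in 8.45% at 24 hrs, 3.04% at 6 hrs and 1.05% at both, and below in 10.9%, 2.96% and 0.565%. DEX was higher in 6 of 6 pairs in 4.29% and lower in 6 of 6 in 4.71% of them. The members were picked for this property, so nothing is read from these counts. The difference of Ak5 at 6 hrs was small, and by its absolute size Ak5 ranked 173 at 24 hrs and 1885 at 6 hrs among the 11053 expressed genes. No rank is given for Ctxn3 and Foxred2, whose vehicle arrays were all below 50.

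**Figure D1:**
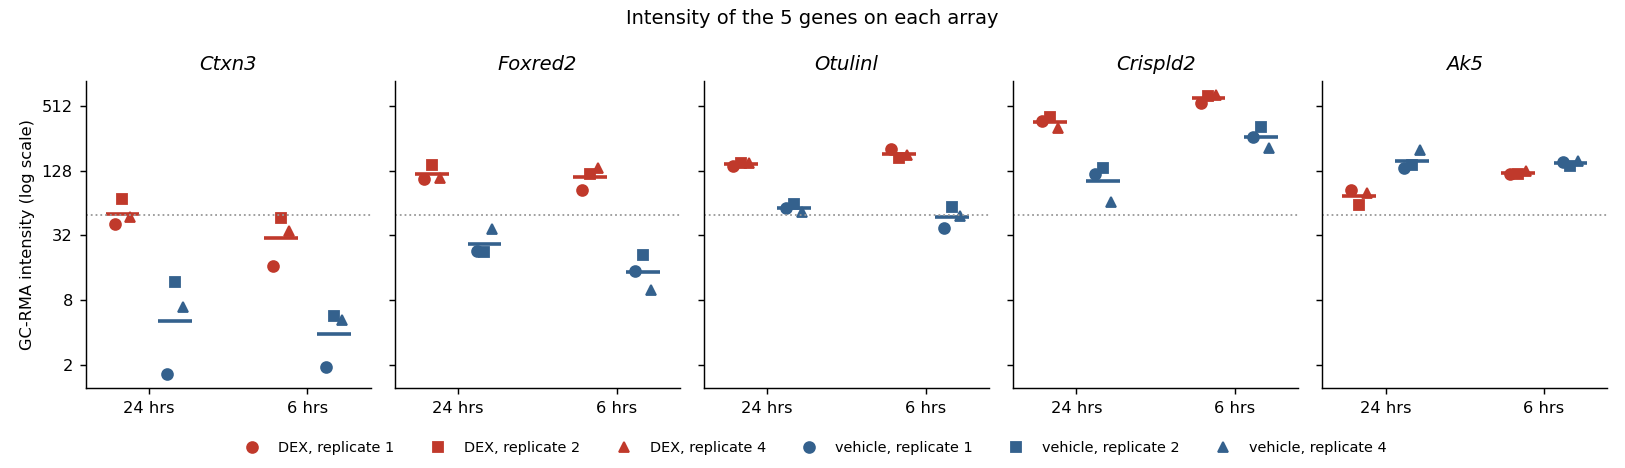
GC-RMA intensity (log scale) of each of the 5 genes on each of the 12 arrays, DEX in red and vehicle in blue, 24 hrs left and 6 hrs right, with 1 point per array, symbols for replicates 1, 2 and 4 and bars at the mean of the log2 values (n = 3); each gene is shown by its brightest expressed probe set and the dotted line is at 50. DEX and vehicle arrays do not overlap in any panel, and the vehicle arrays of Ctxn3 and Foxred2 all lie below 50.

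Ctxn3, the cortexin, was measured by 1 probe set (1438059_at). At 24 hrs its intensities in replicates 1, 2 and 4 were 41, 69.2 and 47 with DEX, against 1.63, 11.8 and 6.9 with vehicle. At 6 hrs they were 16.7, 46.4 and 35.2 with DEX, against 1.92, 5.7 and 5.16 with vehicle. Every DEX array was higher than every vehicle array, yet only 1 of the 12 arrays, DEX replicate 2 at 24 hrs, reached 50. The probe set passed the filter only through the DEX group at 24 hrs, whose mean of 52.4 lies just above the limit. The difference between DEX and vehicle averaged 3.32 ± 1.15 on the log2 scale at 24 hrs (SD of 3 pairs), a ratio of 10.0, and 2.97 ± 0.18 at 6 hrs, a ratio of 7.85. The pair of replicate 1 at 24 hrs stood out with 4.65, with its vehicle array at 1.63, whereas the other pairs of that time were at 2.56 and 2.77. With 16 added to each intensity the differences were 1.59 at 24 hrs and 1.22 at 6 hrs, and with intensities under 50 set to 50 they were 0.16 and 0.00. The size of the ratio thus rests on signals near background.

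Foxred2, the ER flavoprotein, also had 1 probe set (1434414_at). Its intensities at 24 hrs were 108, 145 and 109 with DEX, against 23.1, 22.3 and 37 with vehicle in replicates 1, 2 and 4. At 6 hrs they were 85, 119 and 135 with DEX, against 15, 21.1 and 9.89 with vehicle. Foxred2 was above 50 on all DEX arrays and below 50 on all vehicle arrays, so it passed the filter only through the DEX groups. The lowest DEX array was 2.93-fold above the highest vehicle array at 24 hrs and 4.02-fold above it at 6 hrs. DEX exceeded vehicle by 2.16 ± 0.58 at 24 hrs, a ratio of 4.47, and by 2.92 ± 0.74 at 6 hrs, a ratio of 7.56 (log2, SD of 3 pairs). Within 6 hrs the pair of day 4 was at 3.77 and the pairs of day 3 were at 2.50 and 2.49. With intensities under 50 set to 50 the differences were 1.26 at 24 hrs and 1.15 at 6 hrs.

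Otulinl, the Otulin relative, was measured by 1435375_at. At 24 hrs DEX arrays were at 142, 150.4 and 151, against 57.3, 62.3 and 53 for vehicle. At 6 hrs DEX arrays were at 204, 168 and 179, against 37.6, 58.6 and 48.3 for vehicle. Vehicle cultures thus kept a signal around the limit of 50, and the DEX arrays of 24 hrs lay within a narrow range. The log2 difference was 1.36 ± 0.13 at 24 hrs, a ratio of 2.57, and 1.95 ± 0.46 at 6 hrs, a ratio of 3.86. All 3 pairs of 24 hrs (1.27 to 1.51) were below all 3 pairs of 6 hrs (1.52 to 2.44), by a narrow margin between the nearest. This difference between the times was not tested for a member, and 9.73% of all expressed probe sets had every 24 hrs pair below every 6 hrs pair. The other probe set, 1440718_at, was not expressed. Its highest intensity was 12.6, its DEX and vehicle arrays overlapped, and its pairs ran from -2.32 to 2.07 at 24 hrs.

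Crispld2, the secreted glycoprotein, was the only member with 3 expressed probe sets. By 1434758_at its intensities at 24 hrs were 369.9, 401 and 320.0 with DEX, against 120.4, 136 and 65.6 with vehicle. At 6 hrs they were 544, 641 and 649 with DEX, against 264, 324 and 208 with vehicle. By this probe set all 12 arrays were above 50, so its ratios do not rest on background. DEX exceeded vehicle by 1.82 ± 0.40 at 24 hrs, a ratio of 3.53, and by 1.22 ± 0.36 at 6 hrs, a ratio of 2.34 (log2, SD of 3 pairs). Probe set 1437056_x_at gave 1.85 at 24 hrs and 1.32 at 6 hrs, and 1460458_at gave 1.18 and 1.25. The pair of replicate 4 had the largest difference by every probe set at both times, with 2.29 at 24 hrs and 1.64 at 6 hrs by the brightest, and at 6 hrs it was also the only pair of its hybridization day. By 1460458_at this pair was at 1.94 at 24 hrs, with its vehicle array at 33.6 and so below 50, and the other pairs of that time were at 0.74 and 0.85. The larger difference at 24 hrs than at 6 hrs was found with 1434758_at and 1437056_x_at but not with 1460458_at, for which the 24 hrs value was lower by 0.08 than the 6 hrs value.

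**Figure D2:**
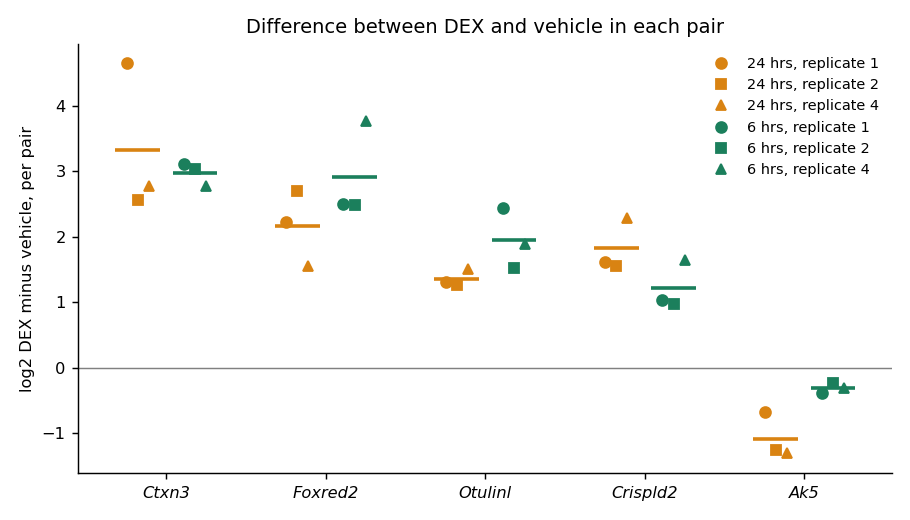
Difference between DEX and vehicle (log2 intensity, y axis) in each of the 3 pairs at 24 hrs (orange, left) and at 6 hrs (green, right) for the 5 genes, with symbols for replicates 1, 2 and 4 and bars at the mean of the 3 pairs. All pairs of Ctxn3, Foxred2, Otulinl and Crispld2 are above 0 and all pairs of Ak5 are below 0; Ctxn3 replicate 1 at 24 hrs, at 4.65, is the highest.

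Ak5, the adenylate kinase, was the member that was lower with DEX. By 1457032_at its intensities at 24 hrs were 85.3, 60.9 and 79.9 with DEX, against 137, 146 and 198 with vehicle. At 6 hrs they were 119.6, 119 and 128 with DEX, against 155, 141 and 159 with vehicle. The gap between the groups was small at 6 hrs, where the lowest vehicle array was 1.1-fold above the highest DEX array, and 1.6-fold at 24 hrs. The log2 difference was -1.08 ± 0.35 at 24 hrs, which is 2.12-fold lower with DEX, and -0.31 ± 0.07 at 6 hrs, which is 1.24-fold lower. The second probe set, 1426339_at, had 53.8, 46.8 and 59.1 with DEX, against 105, 98.8 and 141 with vehicle at 24 hrs. At 6 hrs it had 41.3, 56.8 and 94 with DEX, against 47.1, 64.3 and 113 with vehicle, and here the groups overlapped although each DEX array was below its own vehicle array. Its differences were -1.10 at 24 hrs and -0.21 at 6 hrs. By both probe sets every 24 hrs pair was below every 6 hrs pair, as in 9.73% of all expressed probe sets. By 1457032_at the vehicle arrays of both times overlapped, and the DEX arrays of 24 hrs were all below those of 6 hrs, as in 12.8% of all probe sets.

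**Figure D3:**
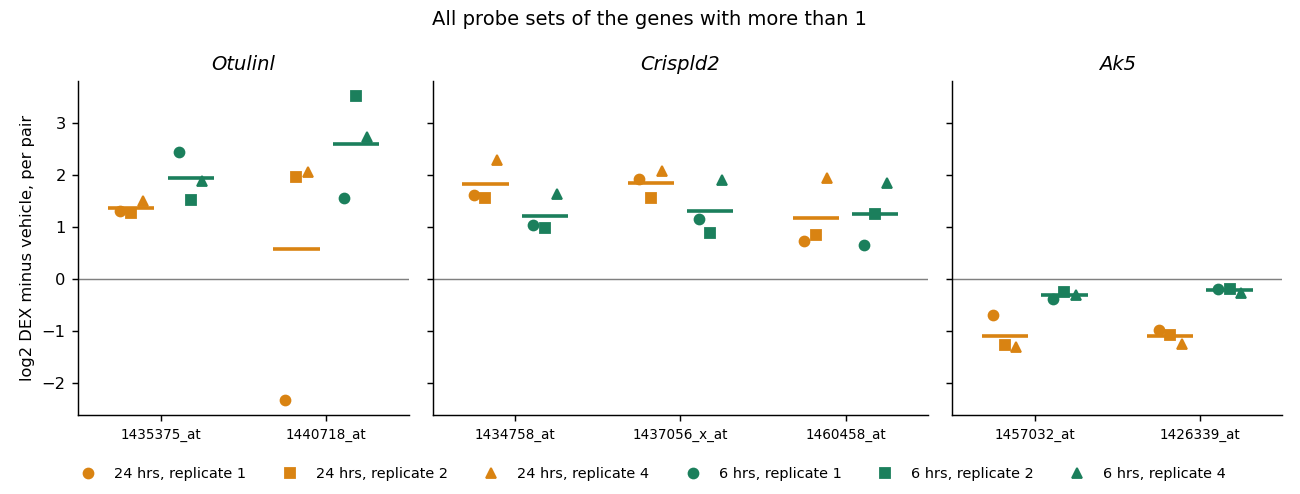
Difference between DEX and vehicle (log2 intensity, y axis) in each pair at 24 hrs (orange, left) and 6 hrs (green, right) for every probe set of Otulinl, Crispld2 and Ak5, with symbols for the replicates and bars at the mean of 3 pairs. The 3 probe sets of Crispld2 are above 0 and the 2 of Ak5 below 0 in all pairs, while 1440718_at of Otulinl, which was not expressed, runs from -2.32 to 3.52.

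As a background for the lists below, of all expressed genes 0.380% passed limma's test (adjusted p by Benjamini-Hochberg over all probe sets under 0.05) at 24 hrs, 0.308% did at 6 hrs and 0.932% did over the 2 times jointly. With the pairs as a block these shares were 2.51%, 1.08% and 3.59%. The list of established glucocorticoid targets holds genes known to respond in many tissues. It was chosen with earlier results of these data known, so its counts and p-values are not an independent test. Of its 22 tested genes, 10 rose and 0 fell over both times, with a median log2 difference of 1.04 against -0.02 over all genes, and with the pairs as a block 13 rose and 1, Angptl4, fell. Klf15, a transcription factor, rose by 4.68 on the log2 scale (SE 0.33, adjusted p = 0.00011), with mean intensities of 234 with DEX and 13.2 with vehicle at 24 hrs and of 159 with DEX and 5.23 with vehicle at 6 hrs. Its vehicle signal was thus below the limit, and with intensities under 50 set to 50 it rose by 1.92 (adjusted p = 7.68e-05). Tsc22d3, a leucine zipper protein that glucocorticoids induce, rose by 3.48 (SE 0.23, adjusted p = 0.0001). Zbtb16, a zinc finger repressor, rose by 3.28 (SE 0.20, adjusted p = 6.36e-05), and Mt1, a metal-binding metallothionein, by 2.70 (SE 0.29, adjusted p = 0.00113). Each of these 4 was higher with DEX in 6 of 6 pairs. The members are not ranked against these targets, since they were picked on the same values and the mean vehicle signals of Ctxn3, Foxred2, Klf15 and Zbtb16 were below 50.

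**Figure D4:**
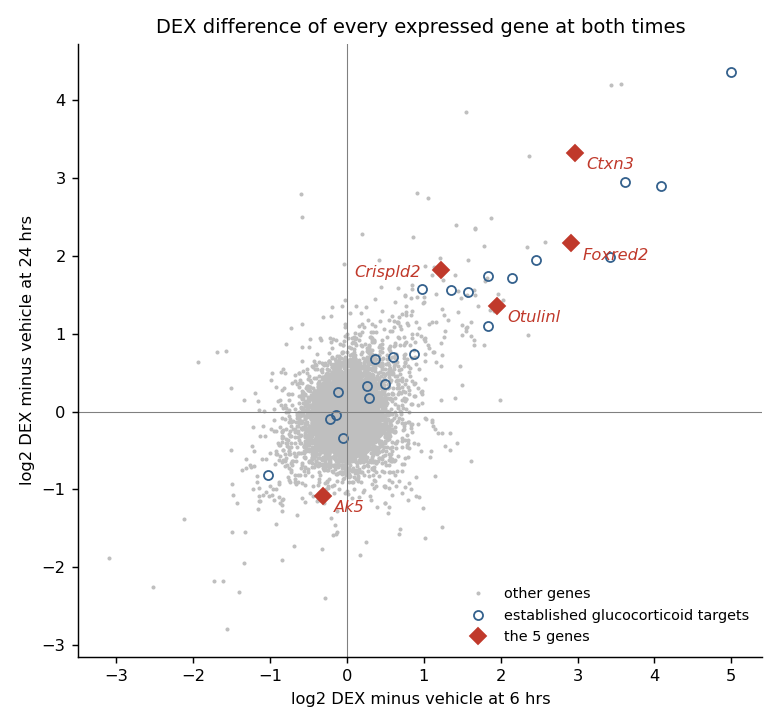
Log2 difference between DEX and vehicle at 24 hrs (y axis) against that at 6 hrs (x axis) for each of 11053 expressed genes (grey points), with the 22 tested established glucocorticoid targets as open blue circles and the 5 genes as red diamonds. Ctxn3 is plotted at 3.32 for 24 hrs and 2.97 for 6 hrs, values that fall to 0.16 and 0.00 with intensities under 50 set to 50, Foxred2 at 2.16 and 2.92 (1.26 and 1.15 with that floor), and Ak5 at -1.08 and -0.31.

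The difference between the times was not itself used to pick the members and was tested, with the arrays of 24 hrs against those of 6 hrs. The members were picked on these same arrays, however, so the tests are not independent of that choice. Time and hybridization day cannot be told apart here, since each day held 1 time only. In vehicle 0 of the 5 members passed limma's test and 2 had an unadjusted p under 0.05, where 0.00957% of all expressed probe sets passed and 30.5% had an unadjusted p under 0.05. With DEX 0 of 5 passed and 2 had an unadjusted p under 0.05, against 1.00% and 28.7% of all. Both counts include Ctxn3 and Foxred2, which passed the filter only through DEX groups.

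Crispld2 came closest to the threshold in vehicle. There all its 24 hrs arrays (120.4, 136 and 65.6) were below all its 6 hrs arrays (264, 324 and 208), as in 13.4% of all probe sets. The log2 difference was -1.35 (SE 0.27, limma adjusted p = 0.0609), and -1.02 (adjusted p = 0.201) without day 3. With the other probe sets it was -1.39 for 1437056_x_at (adjusted p = 0.076) and -0.77 for 1460458_at (adjusted p = 0.182). The first of these shrank to -0.41 without day 3, since its vehicle arrays at 6 hrs were at 293 and 267 on day 3 and at 100.3 on day 4. With DEX, Crispld2 was also lower at 24 hrs than at 6 hrs, by a log2 difference of -0.75 (SE 0.27, adjusted p = 0.126). The adjusted p in vehicle fell below 0.05 in 5 of 21 other settings, among them those without vehicle replicate 4 at 6 hrs (0.0192) or without DEX replicate 4 at 6 hrs (0.0228), and reached 0.376 with hybridization day as a random block.

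Ak5 came closest to the threshold among members with DEX. In vehicle its log2 difference between 24 hrs and 6 hrs was 0.06 (SE 0.18, adjusted p = 0.834). With DEX all its 24 hrs arrays (85.3, 60.9 and 79.9) were below all its 6 hrs arrays (119.6, 119 and 128), as in 12.8% of all probe sets, with a difference of -0.71 (SE 0.18, adjusted p = 0.0795). That value passed in 4 of 21 other settings, including those without DEX replicate 4 (0.0327) or vehicle replicate 4 (0.0436) at 6 hrs, and was 0.358 with hybridization day as a random block. By 1426339_at the DEX difference was -0.19, and -0.83 without day 3, so the brighter and the dimmer probe set differ in how they move with the day.

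Foxred2 was higher at 24 hrs than at 6 hrs in vehicle by 0.87 (SE 0.31, adjusted p = 0.113), with no overlap of arrays, as in 19.6% of all probe sets. All these arrays were below 50, and with DEX the difference was 0.11 (adjusted p = 0.825). Otulinl had 0.28 in vehicle (SE 0.18, adjusted p = 0.287) and -0.31 with DEX (SE 0.18, adjusted p = 0.253). With DEX its 24 hrs arrays were all below its 6 hrs arrays, as in 12.8% of all probe sets. For Ctxn3 the values were 0.41 in vehicle (SE 0.68, adjusted p = 0.677) and 0.76 with DEX (adjusted p = 0.45), and its arrays overlapped. Its vehicle arrays were all below 50, and it passed the filter only through the DEX group at 24 hrs. Nothing is therefore read from these values of Ctxn3. In simulated data for the vehicle comparison the fit found 30% of the probe sets changed by 1 on the log2 scale and 80% of those changed by 2. The simulated arrays had independent noise, no hybridization day and few changed probe sets, so these shares may not hold for the real arrays. Whether a change of the size seen in Crispld2 could be missed here is therefore not known.

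The closest relatives of the members by name did not pass the test, with 1 exception among the adenylate kinases. Over both times the log2 difference between DEX and vehicle was -0.13 for Ctxn1 (2 of 6 pairs higher with DEX), -0.03 for Foxred1 (2 of 6), 0.19 for Otulin (5 of 6), 0.38 for Crispld1 (5 of 6), -0.07 for Ak1 (2 of 6) and 0.35 for Ak4 (5 of 6), each with a limma adjusted p of 1. Ctxn2, whose highest array was at 41.6, was not expressed. Otulin is the direct neighbour of Otulinl on chromosome 15, and its mean intensities were 338 with DEX and 333 with vehicle at 24 hrs, and 307 with DEX and 235 with vehicle at 6 hrs. Ak3, a mitochondrial enzyme that passes phosphate from GTP to AMP, rose over both times by 0.64 (SE 0.11, limma adjusted p = 0.0265), in 6 of 6 pairs, by its brightest probe set (1423717_at). Its other expressed probe sets did not pass, with 0.57 for 1423718_at (6 of 6 pairs) and 0.52 for 1432436_a_at (5 of 6 pairs), each with an adjusted p of 1. By the brightest its means were 819.8 with DEX and 463 with vehicle at 24 hrs, and 464 with DEX and 335 with vehicle at 6 hrs. With the pairs as a block Ak3 also passed at 24 hrs alone (adjusted p = 0.0259). The call for both times was lost without any of 9 of the 12 arrays, namely DEX replicate 2, vehicle replicate 1 or vehicle replicate 4 at 6 hrs, or any array of 24 hrs (adjusted p up to 0.101).

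Few genes of the members' pathways passed the test. Of 39 tested genes for protein folding and degradation in the ER, 0 rose and 0 fell by limma over both times, also with the pairs as a block, and 1 had an unadjusted p under 0.05, as did 5.65% of all expressed probe sets. Their median log2 difference was 0.02, against -0.02 over all genes. Human FOXRED2 is known to bind SEL1L, OS9 and DNAJC10, and the mouse genes, named for this role, had 0.14 (Sel1l), 0.13 (Os9) and -0.05 (Dnajc10), each with an adjusted p of 1. Of 20 OTU deubiquitinases and genes of linear ubiquitin, 0 passed by limma without or with the block and 1 had an unadjusted p under 0.05, with a median of -0.03. Of 7 tested CAP and LCCL domain proteins, the class of Crispld2, 0 passed in either fit and 0 had an unadjusted p under 0.05, with a median of 0.02. Of 21 tested genes for AMP sensing and adenine nucleotide turnover 1 rose and 0 fell, with a median of 0.05. The gene was Ampd3, which deaminates AMP, with a log2 difference of 1.32 over both times (SE 0.21, limma adjusted p = 0.0166, higher in 6 of 6 pairs). Its means were 386 with DEX and 226 with vehicle at 24 hrs, and 504 with DEX and 149 with vehicle at 6 hrs. The call was lost without DEX replicate 2 (adjusted p = 0.0605) or DEX replicate 4 (0.06) at 24 hrs. With the pairs as a block Ampd3 passed at 6 hrs as well (adjusted p = 0.0209, against 0.0502 without). A difference of the DEX effect between the times was tested for 169 list genes, of which 0 passed by limma and 6 had an unadjusted p under 0.05, while over all expressed probe sets 0% passed and 3.63% had such a p.

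The genes nearest on the chromosome were read as well. The members lie on chromosomes 18 (Ctxn3), 15 (Foxred2 and Otulinl), 8 (Crispld2) and 3 (Ak5). Of the 30 protein-coding genes that flank them, 3 on each side, 20 were tested, and 0 passed by limma in any DEX comparison, while 2 had an unadjusted p under 0.05 over both times, where 5.65% of all expressed probe sets did. Their log2 differences over both times ran from -0.66 to 0.31. The lowest was that of Ank, a membrane protein for transport of pyrophosphate, which lies beyond Otulin on the same side of Otulinl. Ank was lower with DEX in 6 of 6 pairs, and with the pairs as a block it passed over both times (adjusted p = 0.0101, against 0.351 without) and at 24 hrs (0.0327). Its direction is opposite to that of Otulinl. The neighbours were chosen after the members' values were known.

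Genes whose pattern was most like that of a member were sought over the 12 arrays on log2 intensity minus the mean of the hybridization day. All arrays share the contrast of DEX and vehicle, which sets much of each r, so the values are a description. For Ctxn3 and Foxred2 every vehicle array was also below 50, so their r rests in part on signals under the limit. For Ctxn3 the highest Pearson r was with Pik3r1 (0.994), Ccnd3 (0.988) and Fgfr2 (0.970), whose own DEX differences ran from 0.33 to 0.89 at 24 hrs. For Foxred2 they were Slc10a6 (0.989), Plekha2 (0.988) and Lims2 (0.987). For Otulinl they were Jade2 (0.994), Sphk1 (0.985) and Mtor (0.985). Jade2 and Sphk1 also had DEX differences close in size to those of Otulinl, at 1.30 and 1.43 at 24 hrs and at 1.86 and 2.03 at 6 hrs. For Crispld2 they were Smpd3 (0.990), Il16 (0.990) and Pla2g5 (0.984), all with a larger difference at 24 hrs than at 6 hrs, as for Crispld2 by its brightest probe set. For Ak5 they were Mex3a (0.982), Dock11 (0.981) and Penk (0.959). Among the members themselves r was highest between Foxred2 and Otulinl (0.953), and Ak5 ran opposite to Crispld2 (-0.922). The members were picked for the direction of their DEX difference, which sets the sign of each r among them, so no relation between members is read from these values.

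Because Ctxn3 and Ak5 are known from brain and Crispld2 from connective tissue cells, markers of other cell types were read from the same arrays. Of 16 neuron and glia markers 6 were tested, and Tubb3, Snap25, Syt1, Nefl, Nefm, Elavl4, Rbfox3 and Gfap were on the array but not expressed. The summed intensity of the 6 was 1340.3 to 1604 with DEX and 984 to 1235 with vehicle at 24 hrs, without overlap, and 904 to 1007 with DEX and 805 to 1029 with vehicle at 6 hrs. Of single expressed probe sets 8.45% had all DEX arrays above all vehicle arrays at 24 hrs, and 10.9% had them all below. S100b, a calcium-binding protein of glia and also of chondrocytes, had the highest mean of the 6 at 24 hrs (865 with DEX and 613 with vehicle, limma adjusted p = 0.88) and made up most of the difference between the sums. Among the 6, 0 passed by limma, 1 had a p under 0.05 before adjustment, and with the pairs as a block Map2, a neuronal cytoskeleton protein, passed over both times (0.51, adjusted p = 0.0212). The 11 tested tendon and perichondrial fibroblast markers summed to 13695 to 20999 with DEX and 15310.0 to 18149 with vehicle at 24 hrs, and to 11989 to 19814 with DEX and 11011 to 19878 with vehicle at 6 hrs. Of these 0 passed by limma and 1 had an unadjusted p under 0.05, and with the block Postn, a matrix protein of connective tissue, passed over both times (1.01, adjusted p = 0.00136). The 4 tested adipocyte markers summed to 1701 to 2121 with DEX and 644 to 861 with vehicle at 24 hrs, without overlap, and to 1288 to 2365 with DEX and 822 to 1792 with vehicle at 6 hrs. Among these, Fabp4, a fatty acid carrier, rose over both times by 2.17 (SE 0.41, limma adjusted p = 0.0396), a call lost without any of 7 arrays (DEX replicate 1, DEX replicate 2 or vehicle replicate 2 at 6 hrs, any DEX array or vehicle replicate 1 at 24 hrs; adjusted p up to 0.126). The sum follows Fabp4, which averaged 1402 with DEX and 295 with vehicle at 24 hrs. The other 3 did not pass and differed in sign, at -0.35 for Lpl, 0.17 for Pparg and 0.52 for Plin4 over both times (each adjusted p of 1), and Lpl averaged 241 with DEX and 351 with vehicle at 24 hrs. Adipoq, Cidec and Lep were not expressed. The 6 tested macrophage markers summed to 558 to 688 with DEX and 707 to 901 with vehicle at 24 hrs, without overlap, and to 623 to 813 with DEX and 574 to 888 with vehicle at 6 hrs. Their median log2 difference over both times was -0.28, with 0 of the 6 above 0, and Ptprc, Itgam, Tyrobp and Aif1 were not expressed. Of 10 tested skeletal muscle, 6 tested macrophage and 1 tested endothelial markers 0 passed by limma, with 1, 2 and 0 at an unadjusted p under 0.05 over both times, against 5.65% of all expressed probe sets, and with the block Tnni2, a muscle troponin, passed over both times (0.72, adjusted p = 0.0374). The log2 differences over both times were above 0 for all 18 cartilage genes, with a median of 0.18 against -0.02 over all genes. At the single times they were above 0 for 17 at 24 hrs and for 13 at 6 hrs. The lowest over both times was that of Col2a1, at 0.01 (SE 0.25). Of the 18 genes, 1 passed by limma. It was Chad, which encodes chondroadherin and rose over both times by 0.97 (limma adjusted p = 0.017), a call lost without vehicle replicate 1 or 2 at 6 hrs or without DEX replicate 4, vehicle replicate 1 or vehicle replicate 4 at 24 hrs (adjusted p up to 0.0657). The part of other cells in the members' values was not tested.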

How the data were processed

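RNA of cultured chondrocytes was measured on 12 one-colour arrays, 3 in each of 4 groups. The authors deposited linear intensities made with GC-RMA in GeneSpring GX (its version is not given in the sources used). The scanner record of each array, whose settings the authors deposited as text, was used only for the hybridization day. Arrays have no read depth, so precision is limited by how many there are and how far a signal lies above background. No pseudocount was added before log2 values were taken. A probe set was tested if any group's mean reached 50 (20897 did). Tests were made in limma 3.58.1 under R 4.3.3 on all 12 arrays with a mean for each group and without a block. The p-values were adjusted by Benjamini-Hochberg over all tested probe sets, the threshold was 0.05, and SE is moderated. Python 3.11.15 was used for tables and figures.

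The annotation gave a single symbol to 34958 probe sets, several to 932, which were not named, and none to 9211. RefSeq genes were matched for 34754. The brightest expressed probe set stands for a gene. The members and gene lists were chosen with earlier results of these data known. Named are the members, their relatives by name, up to 4 called genes per list and the 3 genes most like each member. Neighbours, ER partners and alternatives with a floor of 50 or without day 3 were chosen after the data were seen.

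Replicate numbers were checked by correlating deviations from group means. For same-numbered DEX and vehicle arrays r was 0.158, 0.301 and 0.220 at 24 hrs and 0.681, 0.632 and 0.863 at 6 hrs, and pairs of DEX and vehicle within a time were taken from this. The correlations of 6 hrs also hold the hybridization day, since replicates 1 and 2 shared day 3 (unlike numbers of that day 0.506 and 0.571). Those of 24 hrs hold the day too, since replicate 2 was alone on day 1 and replicates 1 and 4 shared day 2 (unlike numbers of day 2 0.0181 and 0.0082). Across the times r was -0.0434 to 0.0892, and no pairing was taken there. The scanner records of day 4 carry another replicate number than the sample labels, and the labels were followed. The fit was tested on simulated data with independent noise, no hybridization day and few changed probe sets. For 24 against 6 hrs in vehicle it found 0%, 30%, 80% and 98% of 50 log2 changes each of 0.5, 1, 2 and 4 among 20897 probe sets, with 8 false calls.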

Additional observations from a re-analysis of the deposited data

How the results depend on the processing

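Groups hold 3 arrays, so that 1 array weighs much, and signals below 50 have no firm ratio. Of 134 alternative values of the members' differences between DEX and vehicle, 111 moved by less than the spread between pairs, 23 moved by more and 0 changed sign. Leaving out 1 array gave, at 24 hrs and at 6 hrs, 2.50 to 3.93 and 2.47 to 3.40 for Ctxn3, 2.02 to 2.39 and 2.63 to 3.18 for Foxred2, 1.30 to 1.42 and 1.78 to 2.10 for Otulinl, 1.50 to 2.03 and 1.06 to 1.38 for Crispld2, and -1.19 to -0.92 and -0.36 to -0.28 for Ak5 (log2). With 16 added to intensities the difference was 1.59 and 1.22 for Ctxn3 at 24 and 6 hrs, 2.03 for Foxred2 at 6 hrs and 1.16 for Otulinl at 24 hrs. With a floor of 50 it was 0.16 and 0.00 for Ctxn3 and 1.26 and 1.15 for Foxred2 at 24 and 6 hrs. After quantile normalization it was 2.55 for Ctxn3 at 6 hrs and 1.50 for Otulinl at 24 hrs. Within day 4 it was 2.77 for Ctxn3, 3.77 for Foxred2 and 1.64 for Crispld2. Other probe sets gave 0.57 and 2.60 for Otulinl at 24 and 6 hrs (mean of its probe sets at 24 hrs 0.97), 1.18 for Crispld2 at 24 hrs and -0.21 for Ak5 at 6 hrs.

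The probe sets called for DEX numbered 60 at 24 hrs, 47 at 6 hrs and 156 when the times were joined. Without the filter they were 22, 18 and 73, a block for hybridization day gave 455, 198 and 600, and the pairs as a block gave 449, 189 and 668. Fits of only the compared arrays called 163 at 24 hrs and 0 at 6 hrs. There were, with quantile normalization 95 at 24 hrs and within day 3 alone 2 at 6 hrs. A Welch test of 3 against 3 arrays at each time, adjusted over the probe sets tested here, called 0 and 0. It is not the test of the paper, which used a Welch ANOVA for treatments at both times with another filter. That ANOVA did call probe sets. Leaving out 1 array gave 16 to 88, 18 to 38 and 90 to 156. For 24 against 6 hrs, 2 were called in vehicle and 210 with DEX. In vehicle they were 37 with 16 added, 118 after quantile normalization, 562 with a floor of 50, 0 with only the compared arrays, 0 with day as a random block, 211 without day 3 and 0 to 6623 without 1 array. With DEX they were 33 without the filter, 113 after median centring, 443 with a floor of 50, 0 with only the compared arrays, 2 with day as a random block, 40 without day 3 and 12 to 7152 without 1 array. With the replicate number as a block they were 1382 in vehicle and 1190 with DEX. The cause of these shifts was not tested. For the members' time differences 0 of 5 were called in vehicle and with DEX, and the calls of Crispld2 in vehicle and Ak5 with DEX came and went with the settings. Crispld2 passed after quantile normalization (adjusted p = 0.0463), with a floor of 50 (0.0393) and with the replicate number as a block (0.0357), and Ak5 after quantile normalization (0.0404) and with that block (0.047). Without the filter Ak3 (adjusted p = 0.17), Ampd3 (0.0781), Chad (0.0923) and Fabp4 (0.138) no longer passed over both times. With the pairs as a block no call of a list gene was lost, and the cell type markers and neighbours gained over both times are named above.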
